A study of Arabidopsis thaliana with 12 samples.

Results

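The mitotic cyclin and B-type cyclin-dependent kinase (CDKB) genes described here are 10 Arabidopsis thaliana genes that act around the entry into mitosis and at cell division. They are the A-type cyclin CYCA1;1 (AT1G44110), the B-type cyclins CYCB1;1 (AT4G37490), CYCB1;2 (AT5G06150), CYCB1;4 (AT2G26760) and CYCB2;1 (AT2G17620), the kinases CDKB1;1 (AT3G54180), CDKB1;2 (AT2G38620), CDKB2;1 (AT1G76540) and CDKB2;2 (AT1G20930), and the cytokinesis syntaxin KNOLLE (AT1G08560). The members were taken by locus identifier from a table of 31837 gene records, by a rule that uses no measured value. The table names genes by these identifiers, which are used below except for KNOLLE. All 10 were among the 17649 records with a mean level of at least 1 FPKM over the genotypes. FPKM is a count of fragments scaled to transcript length and library size, so it is a level per length.

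RNA came from 14-day-old Col-0 seedlings grown in long days, in 12 libraries, 3 for each of 4 genotypes. The genotypes were the brm-1 mutant, the brd1,2,13 mutant, the brm-1 brd1,2,13 mutant that joins both, and the wild type (WT). BRM is the ATPase of a class of SWI/SNF chromatin remodelling complexes, in which the products of BRD1, BRD2 and BRD13, proteins with a bromodomain, are further subunits. The table gave 1 pooled FPKM value per genotype, so the spread between libraries is unknown, no test could be made, and every difference below is a description without a replicate check.

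The mutated genes were read as a check of the labels. BRM was at 0.0954 FPKM in brm-1, 18.5 in brd1,2,13, 0.120 in brm-1 brd1,2,13 and 17.5 in WT. BRD13 was at 18.7 FPKM in brm-1, 0.223 in brd1,2,13, 0.0194 in brm-1 brd1,2,13 and 14.4 in WT. Transcripts of the other mutated genes were still present, with BRD1 at 4.36 and BRD2 at 3.05 FPKM in brd1,2,13, against 12.7 and 7.04 in WT. BRD2 was at 22.5 FPKM in brm-1.

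In plant cells, a cyclin binds a cyclin-dependent kinase and sets when the kinase is active. CDKB kinases are particular to plants and, with A- and B-type cyclins, drive the passage from G2 into mitosis, after which the B-type cyclins are degraded. Many of these genes are transcribed in a short window before mitosis, under MYB3R transcription factors that bind the M-specific activator (MSA) element, whose core is AACGG. In a seedling, transcripts of this kind come mainly from dividing cells of meristems and young leaves. In RNA from whole seedlings, fewer dividing cells and less RNA per dividing cell cannot be told apart.

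The 250 bases before the gene start are shown for the 6 members in which the core was found, because this is the sequence feature that the genes are best known to share. They were read 5′ to 3′ on the strand of the gene from the RefSeq TAIR10.1 assembly, and capitals mark AACGG and its reverse complement CCGTT.
AT1G44110, chr1:16777353-16777602, minus strand: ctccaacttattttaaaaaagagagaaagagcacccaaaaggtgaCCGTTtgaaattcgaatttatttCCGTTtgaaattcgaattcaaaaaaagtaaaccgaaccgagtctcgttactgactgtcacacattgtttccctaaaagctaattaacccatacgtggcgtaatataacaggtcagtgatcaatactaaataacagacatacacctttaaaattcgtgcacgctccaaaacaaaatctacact
AT4G37490, chr4:17624309-17624558, minus strand: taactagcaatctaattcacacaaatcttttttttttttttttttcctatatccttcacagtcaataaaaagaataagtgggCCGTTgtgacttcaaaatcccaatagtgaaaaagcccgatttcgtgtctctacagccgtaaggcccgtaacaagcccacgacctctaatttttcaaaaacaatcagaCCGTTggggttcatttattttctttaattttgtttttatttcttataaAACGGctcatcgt
AT5G06150, chr5:1861704-1861953, minus strand: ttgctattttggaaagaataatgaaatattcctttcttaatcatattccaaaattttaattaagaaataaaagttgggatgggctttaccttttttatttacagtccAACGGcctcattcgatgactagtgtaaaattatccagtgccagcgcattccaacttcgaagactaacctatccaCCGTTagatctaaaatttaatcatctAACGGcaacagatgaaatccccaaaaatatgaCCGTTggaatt
AT2G17620, chr2:7663805-7664054, plus strand: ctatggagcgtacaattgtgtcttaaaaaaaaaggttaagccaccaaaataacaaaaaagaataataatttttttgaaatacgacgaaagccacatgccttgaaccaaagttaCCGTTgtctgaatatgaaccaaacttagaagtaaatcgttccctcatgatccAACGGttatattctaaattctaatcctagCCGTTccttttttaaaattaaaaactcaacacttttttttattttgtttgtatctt
AT1G20930, chr1:7294747-7294996, minus strand: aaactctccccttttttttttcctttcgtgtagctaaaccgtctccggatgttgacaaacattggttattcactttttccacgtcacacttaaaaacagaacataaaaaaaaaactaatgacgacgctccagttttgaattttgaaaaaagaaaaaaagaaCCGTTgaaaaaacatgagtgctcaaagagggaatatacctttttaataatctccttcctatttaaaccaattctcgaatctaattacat
KNOLLE, chr1:2711001-2711250, minus strand: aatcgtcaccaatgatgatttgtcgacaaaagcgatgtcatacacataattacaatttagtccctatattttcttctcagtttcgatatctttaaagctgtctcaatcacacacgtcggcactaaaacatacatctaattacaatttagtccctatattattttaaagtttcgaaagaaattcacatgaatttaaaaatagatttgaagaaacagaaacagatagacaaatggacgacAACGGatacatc

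AT5G06150 held 4 matches, AT4G37490 and AT2G17620 held 3 each, AT1G44110 held 2, and AT1G20930 and KNOLLE held 1 each. The core was absent from the windows of AT2G26760 and AT2G38620 and from those of AT3G54180 and AT1G76540, which overlap the neighbouring genes AT3G54170 and AT1G76550. At least 1 match was found in 6 of the 10 members and in 20.6% of the windows of all 27443 protein-coding nuclear genes, and at least 2 in 4 members and in 3.62% of all windows. The match nearest the start lay inside the deposited locus of AT4G37490 and of KNOLLE, which in both cases reaches further out than the RefSeq start. The E2F motifs TTTCCCGC and TTTGGCGC, searched on both strands, were in none of the 10 windows, against 0.619% and 0.361% of all windows. With shares this low, most sets of 10 windows would hold no match, so this absence says little about the members. A match is a run of letters and not a shown binding site.

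**Figure D1:**
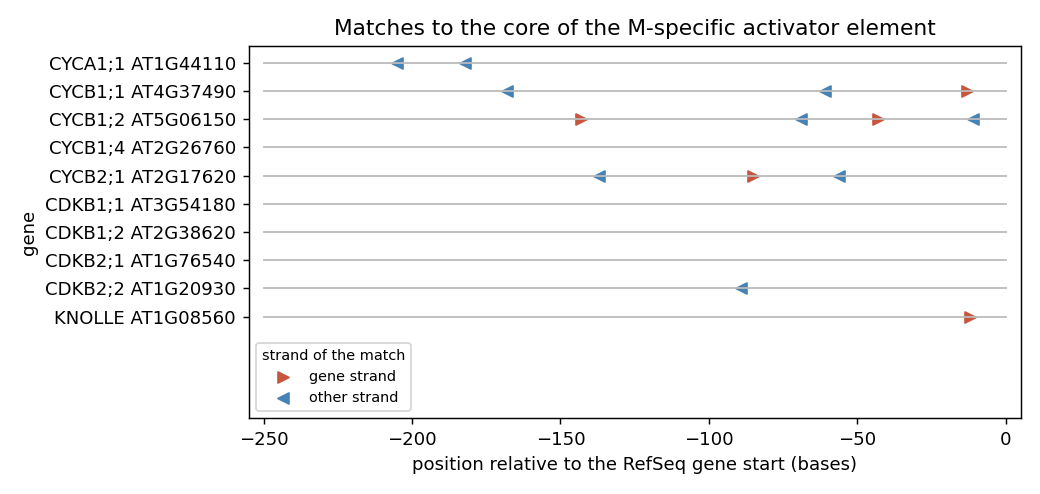
Positions of the AACGG core in the 250 bases before the RefSeq start of each member (horizontal axis, bases), with the strand of each match given by the direction of the triangle. The matches fall in 6 of the 10 windows, and AT5G06150 holds the most, with 4.

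The levels of 5 members are uncertain because of how the table divides the genome. The records of AT4G37490 and AT2G17620 each join a neighbouring gene, AT4G37483 and AT2G17630. The loci of these records and those of AT2G38620, AT1G76540 and KNOLLE are also shared with another record, so reads could have been divided between them. The neighbouring record of KNOLLE, which joins SIG2 and NPQ1, was at 109 FPKM in brm-1, 114 in brd1,2,13, 102 in brm-1 brd1,2,13 and 90.1 in WT, far above KNOLLE itself. The neighbouring record of AT1G76540, which joins AT1G76520 and AT1G76530, was at 33.8 FPKM in brm-1, 40.3 in brd1,2,13, 42.0 in brm-1 brd1,2,13 and 25.9 in WT. AT1G44110, AT5G06150, AT2G26760, AT3G54180 and AT1G20930 had a locus of their own.

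AT1G44110, an A-type cyclin of mitotic cells (chr1:16774865-16777247 in TAIR10), was the most even member. Its level was 5.15 FPKM in brm-1, 5.64 in brd1,2,13, 5.23 in brm-1 brd1,2,13 and 5.61 in WT. The highest value was 1.10 times the lowest.

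The B-type cyclins, which partner the kinases at the entry into mitosis, differed from each other. CYCB1;1 (AT4G37490, chr4:17619094-17624323), the gene most used as a reporter of cells in G2 and mitosis, was at 6.94 FPKM in brm-1, 4.85 in brd1,2,13, 2.30 in brm-1 brd1,2,13 and 5.23 in WT. The brm-1 brd1,2,13 value was the lowest of the 4, at 0.439 times WT and 0.331 times brm-1. This value comes from a record that also holds AT4G37483, and the 5230 bases given for it are the span of the shared locus. The part of that gene and of the shared locus in the difference was not tested. The record that shares the locus, AT4G37480, was at 7.17 FPKM in brm-1, 8.72 in brd1,2,13, 8.63 in brm-1 brd1,2,13 and 8.08 in WT. The other B-type cyclins in brm-1 brd1,2,13 lay within 1.5-fold of WT.

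CYCB1;2 (AT5G06150, chr5:1859279-1861649) was at 9.25 FPKM in brm-1, 6.93 in brd1,2,13, 6.66 in brm-1 brd1,2,13 and 8.08 in WT. It was highest in brm-1, and both mutants with the brd1,2,13 alleles lay below WT. The B1 cyclin AT2G26760 (chr2:11401329-11403427) was at 5.20 FPKM in brm-1, 3.54 in brd1,2,13, 4.33 in brm-1 brd1,2,13 and 4.07 in WT. It too was highest in brm-1, but brm-1 brd1,2,13 lay slightly above WT. The B2 cyclin AT2G17620 (chr2:7664075-7670495) was at 11.4 FPKM in brm-1, 10.2 in brd1,2,13, 10.1 in brm-1 brd1,2,13 and 11.4 in WT. Its record also holds AT2G17630, a phosphoserine aminotransferase gene, and its highest value was 1.13 times its lowest.

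The CDKB1 kinases, which act from S phase to mitosis and also in stomatal divisions, were lower in each mutant than in WT. CDKB1;1 (AT3G54180, chr3:20059796-20061438) was at 5.44 FPKM in brm-1, 5.13 in brd1,2,13, 5.61 in brm-1 brd1,2,13 and 7.12 in WT. Its log2 ratio to WT was -0.39 in brm-1, -0.47 in brd1,2,13 and -0.34 in brm-1 brd1,2,13, so the 3 mutants lay close together. The second CDKB1 gene, AT2G38620 (chr2:16152480-16156579), was at 2.94 FPKM in brm-1, 3.13 in brd1,2,13, 2.54 in brm-1 brd1,2,13 and 3.33 in WT. It was the lowest member in every genotype but brm-1 brd1,2,13, where the AT4G37490 record was lower.

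The CDKB2 kinases, which are confined more closely to G2 and mitosis, were not lower than WT in brm-1 or in brd1,2,13. CDKB2;1 (AT1G76540, chr1:28714906-28722521) was at 13.1 FPKM in brm-1, 9.64 in brd1,2,13, 9.89 in brm-1 brd1,2,13 and 9.42 in WT. The brm-1 value was the highest, and the other 3 lay close together. CDKB2;2 (AT1G20930, chr1:7292568-7294746) was at 8.80 FPKM in brm-1, 10.2 in brd1,2,13, 7.00 in brm-1 brd1,2,13 and 7.72 in WT. Its highest level was in brd1,2,13, and it was the only member past 1.2-fold above WT in that mutant. Summed over each pair, CDKB2 stood at 2.61 times CDKB1 in brm-1, 2.41 times in brd1,2,13, 2.07 times in brm-1 brd1,2,13 and 1.64 times in WT. Each sum includes a member whose locus is shared, AT2G38620 for CDKB1 and AT1G76540 for CDKB2, so these ratios carry that uncertainty.

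KNOLLE (AT1G08560, chr1:2703316-2711016), the syntaxin that fuses vesicles at the forming cell plate, was the most abundant member in all 4 genotypes. Its level was 21.1 FPKM in brm-1, 16.9 in brd1,2,13, 17.6 in brm-1 brd1,2,13 and 16.4 in WT. As with AT1G76540, the brm-1 value was the highest and the other 3 lay close together.

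**Figure D2:**
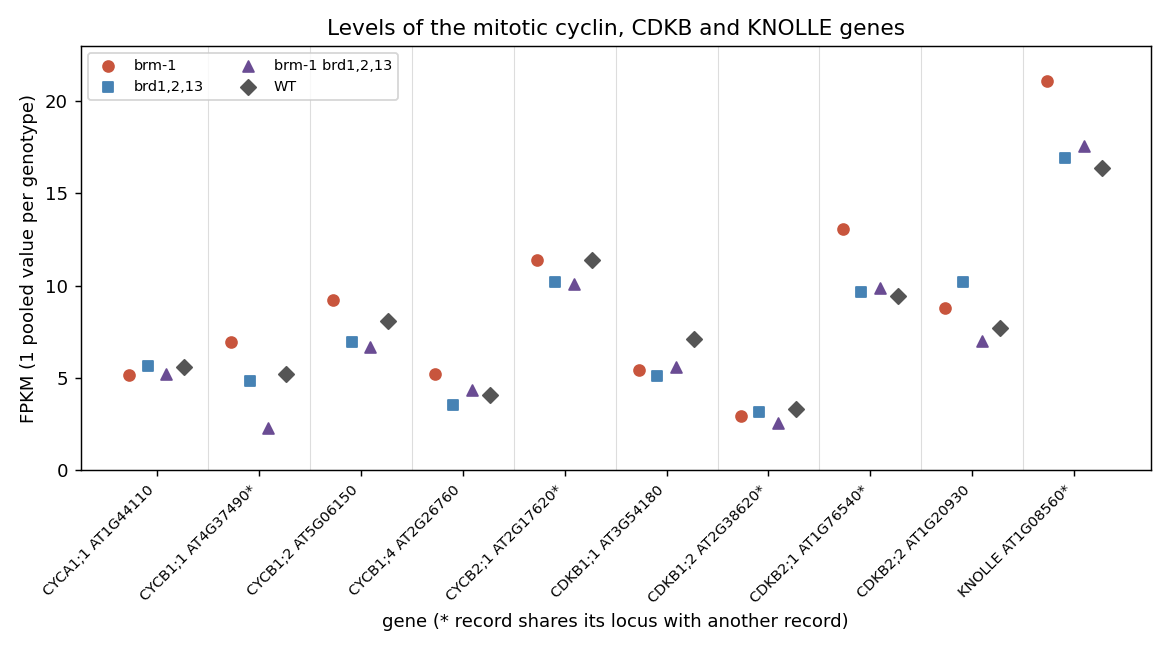
FPKM of each member (vertical axis) in brm-1, brd1,2,13, brm-1 brd1,2,13 and WT, 1 pooled value per genotype and so without error bars. KNOLLE is highest throughout, and the brm-1 brd1,2,13 value of the AT4G37490 record, 2.30 FPKM, is the lowest point.

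The typical spread of the members over the genotypes was near that of all records, but few members had a large spread. The highest genotype was at least 1.5-fold above the lowest in 1 of 10 members, the AT4G37490 record, against 36.7% of all records kept. The median ratio of highest to lowest was 1.39 for the members and 1.35 for all records.

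In brm-1 compared with WT, the members lay on both sides of WT by small amounts. The log2 ratios ran from -0.39 for AT3G54180 to 0.48 for AT1G76540, with a median of 0.19 beside 0.00 for all records. No member was 1.5-fold above or below WT (log2 0.58), where 12.5% and 11.3% of all records were. At the lower mark of 1.2-fold (log2 0.26), 4 members lay above WT, namely AT1G76540, AT4G37490, KNOLLE and AT2G26760, and AT3G54180 lay below, against 25.7% and 25.0% of all records. The B-type cyclins and CDKB2 kinases lay at or above WT, and the CDKB1 kinases and AT1G44110 below it. Of the 4 members above that mark, 3 come from records that share a locus, and the neighbouring records of KNOLLE and AT1G76540 had log2 ratios of 0.27 and 0.38 themselves. Over the 5 members with a locus of their own the median was also 0.19, but only AT2G26760 was past 1.2-fold above and AT3G54180 below.

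In brd1,2,13 compared with WT, the members were close to WT. The median log2 ratio was -0.10, beside 0.01 for all records, and the range was -0.47 to 0.41. No member passed 1.5-fold in either direction, against 6.77% of records above and 3.85% below. AT1G20930 was past 1.2-fold above and AT3G54180 past 1.2-fold below, against 17.6% and 13.4% of records. All 4 B-type cyclins among the members lay below WT, with log2 ratios between -0.11 and -0.22. The share of all records below WT was not counted. The median over the members with a locus of their own was -0.20.

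In brm-1 brd1,2,13 compared with WT, 7 of 10 members lay below WT, and the share of all records below WT was not counted. The median log2 ratio was -0.16, beside 0.01 for all records. The AT4G37490 record, at -1.19, was the only member past 1.5-fold, and it lay below WT, against 14.9% of records above and 13.5% below. Past 1.2-fold, none lay above and 4 lay below, namely AT4G37490, AT2G38620, AT3G54180 and AT5G06150, against 29.0% and 27.4% of records. The median was -0.14 with the 5 members that have a locus of their own, of which none was past 1.5-fold and 2 were past 1.2-fold below.

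The comparison of brm-1 brd1,2,13 with brm-1 asks what the brd1,2,13 alleles add where BRM is already lost. Of the 10 members 8 were lower in brm-1 brd1,2,13, against 49.0% of all records, and the median log2 ratio was -0.26, beside 0.00. AT1G44110 and AT3G54180, at 0.02 and 0.04, were the exceptions. Only the AT4G37490 record was past 1.5-fold, at -1.59, against 2.36% of records above and 2.02% below. Past 1.2-fold, 4 members lay below, namely AT4G37490, AT5G06150, AT1G76540 and AT1G20930, and none above, against 9.39% and 11.1% of records. AT2G26760 and KNOLLE, both at -0.26, lay just short of that mark. The median was the same over the 5 members with a locus of their own, 3 of which were lower, 2 of them past 1.2-fold.

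In brm-1 brd1,2,13 compared with brd1,2,13, the members were spread around no difference. The median log2 ratio was -0.04, beside 0.00 for all records. The AT4G37490 record, at -1.08, was again the only one past 1.5-fold, against 10.4% of records above and 11.7% below. Past 1.2-fold, AT2G26760 lay above and AT4G37490, AT1G20930 and AT2G38620 lay below, against 23.2% and 25.5% of records. The comparisons share genotypes, so their values are not independent of each other.

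**Figure D3:**
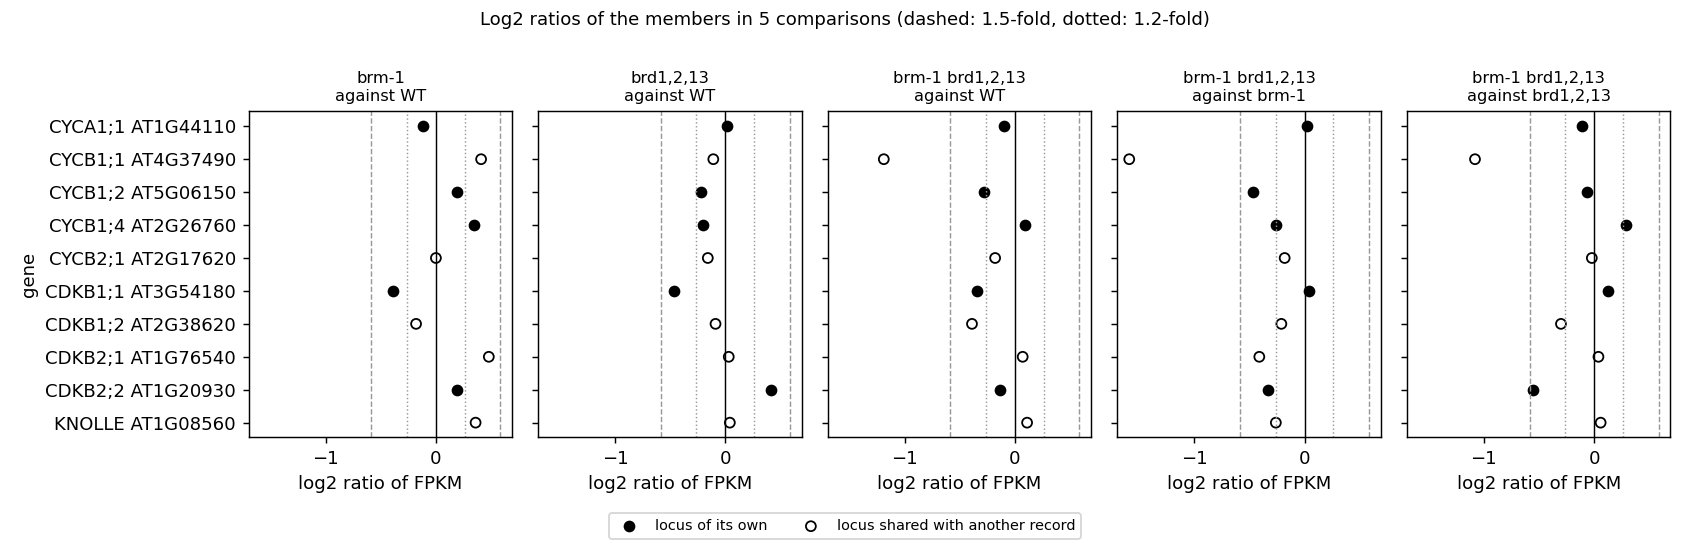
Log2 ratio of FPKM (horizontal axis) for each member in the 5 comparisons, with open circles for records that share a locus, dashed lines at 1.5-fold and dotted lines at 1.2-fold. Only the AT4G37490 record passes 1.5-fold, at -1.19, -1.59 and -1.08 in the 3 comparisons of brm-1 brd1,2,13.

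The log2 ratio of brm-1 brd1,2,13 to brm-1 was set against that of brd1,2,13 to WT, which gives 0 where the alleles act additively on the log2 scale. The difference was below 0 in 8 of 10 members and in 8904 of 17602 records, with medians of -0.19 and 0.00. It ran from -1.48 for the AT4G37490 record to 0.52 for AT3G54180, whose 3 mutant levels were alike. Of the 5 members with a locus of their own 3 were below 0, and their median was -0.06, with AT1G20930 lowest at -0.74.

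The ratios were also read for the 6 members with the AACGG core and the 4 without it. The medians with and without it were 0.19 and 0.09 in brm-1 against WT, -0.05 and -0.15 in brd1,2,13 against WT, and -0.16 and -0.14 in brm-1 brd1,2,13 against WT. In brm-1 brd1,2,13 against brm-1 they were -0.29 and -0.24, and against brd1,2,13 they were -0.08 and 0.08.

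Of the 14 other A- and B-type cyclins, 9 had a record of their own above the minimum, and none of these was past 1.5-fold against WT in any mutant. Past it above and below WT were 12.5% and 11.3% of all records in brm-1 and 6.77% and 3.85% in brd1,2,13. In brm-1 brd1,2,13 these shares were 14.9% and 13.5%. The median log2 ratios of the 9 cyclins against WT were 0.00 in brm-1, -0.19 in brd1,2,13 and -0.23 in brm-1 brd1,2,13. CYCB1;3 (AT3G11520), the remaining B1 cyclin, was at 3.12 FPKM in brm-1, 2.18 in brd1,2,13, 2.14 in brm-1 brd1,2,13 and 2.54 in WT, the order seen for AT5G06150.

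Genes of the spindle, kinetochore and cytokinesis act beside KNOLLE and the mitotic kinases. In brm-1 against WT 10 of the 24 used were past 1.2-fold above and 1 below, against 25.7% and 25.0% of all records, with a median of 0.14. In brm-1 brd1,2,13 against brm-1, 22 of 24 were lower, 14 of them past 1.2-fold and none past 1.5-fold, with a median of -0.30. Over all records 49.0% were lower, 9.39% past 1.2-fold and 2.02% past 1.5-fold. The medians against WT were -0.13 in brd1,2,13 and -0.13 in brm-1 brd1,2,13. Past 1.5-fold against WT were SNAP33, a partner of KNOLLE in the cell plate complex that also acts elsewhere, and MAP65-4, a microtubule bundling protein. Of all records 12.5% were past 1.5-fold above WT in brm-1, and 14.9% above and 13.5% below in brm-1 brd1,2,13. SNAP33, whose record shares its locus with another, was at 56.6 FPKM in brm-1, 35.6 in brd1,2,13, 60.7 in brm-1 brd1,2,13 and 35.0 in WT. MAP65-4 was at 2.24 FPKM in brm-1, 2.46 in brd1,2,13, 1.76 in brm-1 brd1,2,13 and 2.99 in WT. The AACGG core was in 57.7% of the windows of this list, 50.0% of those of the kinase inhibitors, 46.2% of those of the MYB3R, E2F, DP and RBR regulators, 42.9% of those of the other A- and B-type cyclins and 14.3% of those of the DNA replication genes.

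Genes of DNA replication act around S phase, before the entry into mitosis. All 13 used were lower in brm-1 brd1,2,13 than in WT, the closest at a log2 ratio of only -0.01. The share of all records below WT was not counted. Of the 13, 9 were past 1.5-fold below, against 13.5% of all records. The median log2 ratio was -0.69, beside 0.01 for all records. The median was -0.38 in brm-1 and -0.20 in brd1,2,13 against WT. MCM6, a subunit of the replicative helicase, had the largest ratio and was at 5.26 FPKM in brm-1, 6.36 in brd1,2,13, 4.08 in brm-1 brd1,2,13 and 8.27 in WT. PCNA2, the sliding clamp, was at 19.3 FPKM in brm-1, 23.5 in brd1,2,13, 17.0 in brm-1 brd1,2,13 and 30.7 in WT. The log2 ratio of brm-1 brd1,2,13 to WT was -0.84 for TSO2, a subunit of ribonucleotide reductase, and -0.79 and -0.71 for the helicase genes MCM7 and MCM4. The records of PCNA2 and MCM7 share a locus with another. The difference between this list and the members was not tested.

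Most inhibitors of the kinases had lower levels in brm-1 and in brm-1 brd1,2,13 than in WT, 11 of 13 in each. The share of all records below WT was not counted, and the median log2 ratios of all records were 0.00 and 0.01. Of the 13, 4 were past 1.5-fold below WT in brm-1, 1 in brd1,2,13 and 5 in brm-1 brd1,2,13, against 11.3%, 3.85% and 13.5% of all records. The count in brd1,2,13 was thus near its share. Past 1.5-fold above WT there was 1 in brm-1, 0 in brd1,2,13 and 1 in brm-1 brd1,2,13, against 12.5%, 6.77% and 14.9% of all records. The medians were -0.50 in brm-1, 0.00 in brd1,2,13 and -0.55 in brm-1 brd1,2,13. SMR7, an inhibitor induced by DNA damage, was at 1.10 FPKM in brm-1, 1.90 in brd1,2,13, 1.81 in brm-1 brd1,2,13 and 5.58 in WT. KRP7 was at 2.89 FPKM in brm-1, 5.36 in brd1,2,13, 2.45 in brm-1 brd1,2,13 and 7.38 in WT. SMR1 was at 41.5 FPKM in brm-1, 71.9 in brd1,2,13, 37.1 in brm-1 brd1,2,13 and 69.4 in WT, the same order of genotypes as KRP7 apart from brd1,2,13. KRP3 was at 3.97 FPKM in brm-1, 3.38 in brd1,2,13, 2.74 in brm-1 brd1,2,13 and 4.61 in WT. KRP6 lay the other way, at 24.1 FPKM in brm-1, 21.6 in brd1,2,13, 25.9 in brm-1 brd1,2,13 and 15.9 in WT.

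D-type cyclins, which act at the entry into the cycle, had medians of 0.05 in brm-1, 0.05 in brd1,2,13 and -0.01 in brm-1 brd1,2,13 against WT over 9 genes. The log2 ratios of CYCD2;1 to WT were 0.66 in brm-1, 0.05 in brd1,2,13 and 0.52 in brm-1 brd1,2,13. In brm-1 brd1,2,13 the log2 ratio to WT was 0.77 for CYCD4;1 and -0.72 for CYCD3;1.

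Among CDKA, the CDK-activating kinases and the CKS subunits, 1 of 6 used was past 1.5-fold against WT, CDKD;1 in brm-1, at 1.76 FPKM against 1.12 in WT. The medians of this list against WT were 0.09 in brm-1, -0.03 in brd1,2,13 and 0.04 in brm-1 brd1,2,13. Of 4 activators and inhibitors of the anaphase-promoting complex, which degrades B-type cyclins, CCS52A2 was past it, at 3.05 FPKM in brm-1, 4.80 in brd1,2,13, 2.79 in brm-1 brd1,2,13 and 4.85 in WT. Of 12 MYB3R, E2F, DP and RBR regulators, MYB3R5, a repressor of mitotic genes, was past it, at 1.58 FPKM in brm-1, 2.03 in brd1,2,13, 1.39 in brm-1 brd1,2,13 and 2.56 in WT. MYB3R3, a repressor as well, lay the other way, with log2 ratios to WT of 0.27 in brm-1, 0.29 in brd1,2,13 and 0.29 in brm-1 brd1,2,13. The medians of these regulators against WT were -0.15 in brm-1, -0.13 in brd1,2,13 and -0.29 in brm-1 brd1,2,13. Of all records 12.5% were past 1.5-fold above WT and 11.3% below in brm-1, and 14.9% and 13.5% in brm-1 brd1,2,13. A count of 1 in lists this short is therefore not read as a result.

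**Figure D4:**
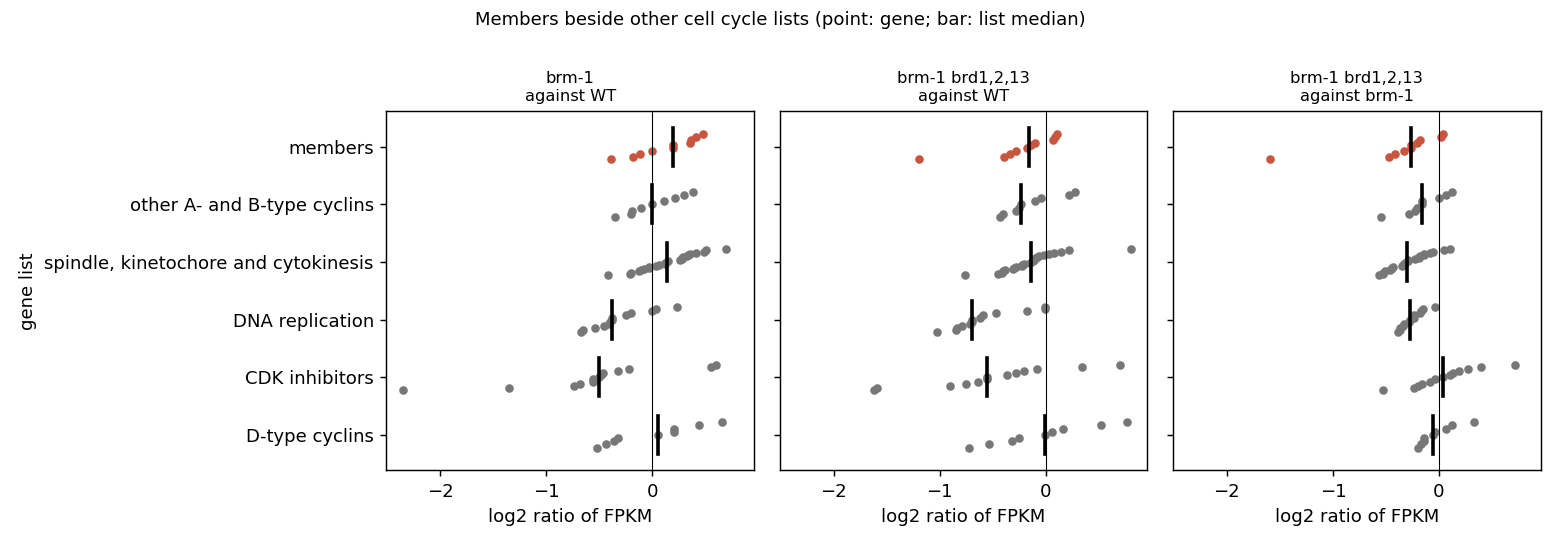
Log2 ratio of FPKM (horizontal axis) for the members and 5 other cell cycle lists in 3 comparisons, with a point for each gene and a bar at the list median. In brm-1 brd1,2,13 against brm-1 the median is -0.26 for the members, -0.30 for the spindle, kinetochore and cytokinesis list and -0.27 for DNA replication.

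Markers of tissues rich or poor in dividing cells differed in part between the genotypes. Summed over 7 of 8 shoot meristem and leaf primordium markers, the level was 34.5 FPKM in brm-1, 42.9 in brd1,2,13, 34.0 in brm-1 brd1,2,13 and 37.9 in WT, with CLV3 at 0 in all but brm-1 and WUS at 0 in WT. These markers did not share a direction. The log2 ratio to WT of STM was 0.30 in brm-1, 0.45 in brd1,2,13 and 0.39 in brm-1 brd1,2,13, and that of AIL6 was -0.25 in brm-1, -0.38 in brd1,2,13 and -0.72 in brm-1 brd1,2,13. KNAT1 and AN3 were below WT in brm-1 and in brm-1 brd1,2,13 and above it in brd1,2,13. The sum over 5 root meristem markers was 24.5 FPKM in brm-1, 23.4 in brd1,2,13, 21.9 in brm-1 brd1,2,13 and 27.4 in WT. Most of it comes from SCR and SHR, which were below WT in each mutant, SHR by a log2 ratio of -0.85 in brm-1 brd1,2,13. WOX5, a marker of the quiescent centre, lay the other way, at 1.78 FPKM in brm-1, 1.58 in brd1,2,13, 1.76 in brm-1 brd1,2,13 and 0.743 in WT. The sum over 8 differentiated root markers was 55.1 FPKM in brm-1, 53.6 in brd1,2,13, 46.8 in brm-1 brd1,2,13 and 84.6 in WT, and 7 of the 8 were lower than WT in each mutant, RHD6 being the exception. The log2 ratio of brm-1 brd1,2,13 to WT was -1.47 for CASP4, -0.96 for PRP3, -0.91 for EXPA7 and -0.74 for CASP2. The sum over 6 leaf mesophyll markers was 41193 FPKM in brm-1, 42073 in brd1,2,13, 39502 in brm-1 brd1,2,13 and 45239 in WT, and in brm-1 brd1,2,13 the log2 ratio to WT was -0.76 for LHCB2.2 and -0.58 for RBCS2B. The part of tissue proportions in the members' ratios was not tested.

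The single-gene records with the profile most like the median of the members were FER3, AT5G64110, ENODL13, AHL1 and AT3G02640, among 11960 with a mean of at least 5 FPKM. Likeness was the root mean square difference of the 3 log2 ratios against WT, 0.033 for FER3 and 0.041 for AT3G02640. The records of ENODL13 and AT3G02640 share a locus with another. FER3, a ferritin, was at 58.3 FPKM in brm-1, 46.7 in brd1,2,13, 43.5 in brm-1 brd1,2,13 and 49.4 in WT.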

How the data were processed

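Per the submitters' processing notes, reads were handled with TopHat, Cufflinks 2.1.1 and Cuffdiff 2.1.1 on TAIR10, with no TopHat version. The deposited table was the Cuffdiff gene test table, with 31837 records in 6 pairs of genotypes. Its FPKM values are those the authors computed, 1 per genotype over 3 libraries. The library scaling, and any use of strand in counting, were not given in the sources used here. Genes that overlap on opposite strands therefore cannot be told apart. Read depth is unknown, and no counting interval is given. The labels do not say whether the libraries were separate plantings. The table also holds the authors' own log2 fold changes, test statistics, p-values and q-values, which were not used.

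Log2 ratios were computed here from the FPKM values without a pseudocount, over 17649 records with a mean of at least 1 FPKM, and counted past 1.5-fold and 1.2-fold. Of these records 47 were listed at 0 in a genotype. Several genes are joined in 1944 records, and 7465 share a locus with another. Records that join genes were left out of the 13 other lists (136 entries) but not of the members. Records that share a locus were kept in those lists, so the levels of BRM, SNAP33, CDKD;1, PCNA2, MCM7 and AIL6 carry the same uncertainty. Coordinates of records are those of the table, and where a locus is shared they span the whole locus and not the gene alone. Symbols and sequences came from RefSeq TAIR10.1, which holds 29057 of the 29744 single-gene records. Named were all members, the mutated genes, at most 5 genes per list past 1.5-fold against WT in any mutant, by size, and the 5 records nearest to the members' median profile. Of the genes so named, 1 is not reported here. CYCB1;3, MYB3R3, STM, KNAT1, AN3, SCR, RHD6, CLV3 and WUS were named after their values were seen. The members and lists were chosen with earlier results of these data known. Alternatives were other pseudocounts, scalings, filters and folds. Python 3.11.15, pandas 2.3.3, numpy 2.4.6 and matplotlib 3.10.9 were used.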

Additional observations from a re-analysis of the deposited data

How the results depend on the processing

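No value past 1.5-fold changed sign under another setting. Only the AT4G37490 record had such values, and none of the settings could have reversed ratios of that size. Of 105 values for the summaries 89 stayed within 0.1 on the log2 scale or within 1.5 times the count, and 396 of 400 for single members. The single-member count says little, because most of these values could not move. A filter leaves the ratio of a member that it keeps unchanged, and the scaling factors ran only from -0.05 to 0.03 on the log2 scale. All 4 values that moved did so with 1 FPKM added. The median of brd1,2,13 against WT was 0.01 with a minimum mean of 5 FPKM, the other side of 0, and -0.20 without records that share a locus, a choice made after seeing the data, as was leaving out joined records. At 1.2-fold in place of 1.5-fold, 5 members passed in brm-1 against WT, 2 in brd1,2,13 against WT and 4 in each comparison of brm-1 brd1,2,13. With a minimum mean of 5 FPKM, without joined records, or without records that share a locus, 0 members passed in those 3 comparisons, since each setting removes the CYCB1;1 (AT4G37490) record. With 1 FPKM added, that record's log2 ratios were -0.92 to WT, -1.27 to brm-1 and -0.83 to brd1,2,13 in brm-1 brd1,2,13, and CDKB1;2 (AT2G38620) was at -0.29 to WT. No paired analysis was possible because the table has 1 pooled value per genotype, and leaving out replicates was not run for the same reason. Depth and replicate spread, both unknown, limit every value.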
